A study of Mus musculus and Homo sapiens with 12 samples.

Results

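The genes described here encode the protein-conducting channel of the endoplasmic reticulum (ER) and its closest partners. There are 10 of them: the 4 subunits of the translocon-associated protein complex (TRAP, also called the signal sequence receptors, SSR1 to SSR4), the 3 subunits of the Sec61 channel (SEC61A1, SEC61B and SEC61G), SEC62, SEC63 and TRAM1. They were taken by gene symbol from the deposited tables, where all 10 were found in mouse and in human, out of 55487 mouse genes and 78932 human genes in the raw count tables. A low level of SSR1 after knockdown of DDX21 in human cells was one reason for choosing these genes. The human values of the 10 genes are therefore given as a description with no p-value. The 10 genes were tested in the mouse experiment, whose values were not the stated reason for the choice. Earlier results of these data were known when the genes were chosen.

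The study used RNA-seq of polyadenylated RNA to ask what loss of the RNA helicase DDX21 does to blood progenitors. In mouse, lineage-negative Kit-positive (LK) cells were sorted from fetal livers at E13.5, mid-gestation. The 3 WT libraries carry floxed alleles without Cre (Ddx21f/f), and the 3 cKO libraries carry the same alleles with Cre (Vav-Cre; Ddx21f/f), so Cre is present in only 1 of the 2 groups. The Vav promoter drives Cre in blood cells. In human, cells were differentiated toward blood from H1 embryonic stem cells, an established line, transduced with a lentivirus that also carries mCherry, and sorted 2 days later as CD34+ CD45+ CD43+ shRNA+ cells. The 3 shNC libraries received the control hairpin and the 3 shDDX21 libraries received the hairpin against DDX21. All 6 human libraries come from 1 stem cell line. The labels number the replicates without saying whether they are separate embryos, litters or differentiations, so p-values measure the spread between these libraries, which may be partly technical.

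Proteins bound for secretion or for membranes are recognised by their signal sequence as they leave the ribosome. The signal recognition particle brings the ribosome to its receptor on the ER, and the growing chain passes into the Sec61 channel. TRAP sits beside that channel and helps some signal sequences to open it. SEC62 and SEC63 serve proteins that need help after or late in synthesis, SEC63 by recruiting the ER chaperone BiP, the product of HSPA5, and TRAM1 is a membrane protein beside the channel that helps signal sequences and membrane segments to enter.

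Total counts were 21116079 to 23898130 per mouse library and 15289510 to 19798608 per human library. Levels below are CPM (the share of a library's counts, in counts per 1000000) scaled by TMM, a method that matches the libraries on the bulk of their genes. TPM, given in places, divides counts by exon length and scales every library to the same sum. Statements that libraries lay above or below others refer to CPM unless TPM is named. The targeted gene followed the labels. Ddx21 stood at 1410 to 1432 CPM in the WT and 276 to 283 CPM in the cKO libraries, and DDX21 at 465 to 477 CPM in the shNC and 67.0 to 69.2 CPM in the shDDX21 libraries. The mouse libraries were less alike within a group than the human ones. The chi-square per degree of freedom between 2 libraries of a group was 1.96 for WT replicates 1 and 2, but 11.01 and 15.9 for the pairs with WT replicate 3, and 7.38 to 25.9 among the cKO libraries, highest for replicates 1 and 2. It was 1.54 to 1.71 in human. Genes of blood progenitor identity (Kit, Cd34, Ptprc, Spn, Gata2, Runx1 and Tal1) were detected in every group and summed to 1297 to 1345 CPM in WT, 1378 to 1398 in cKO, 2672 to 2731 in shNC and 2829 to 2856 in shDDX21. The sums mix genes that moved both ways. In human, mean GATA2 went from 438 to 197 CPM, RUNX1 from 369 to 258 and PTPRC from 95.6 to 68.4. TAL1 (681 to 969), SPN (696 to 871), CD34 (250 to 294) and KIT (171 to 184) were higher. In mouse, Cd34, Ptprc, Gata2 and Runx1 had higher means in cKO, and Kit, Spn and Tal1 lower ones. Markers of other cells moved with the mouse groups. The 8 hepatocyte markers matched summed to 1.37 to 1.85 CPM in WT, where 2 of them passed 3 counts in a library, and to 29.2 to 33.9 CPM in cKO, where all 8 did. The 6 macrophage markers summed to 36.4 to 38.9 CPM in WT and to 14.1 to 16.6 CPM in cKO. In WT and cKO, mean Csf1r was 29.8 and 7.35 CPM, Adgre1 2.14 and 1.04, and Cd68 5.29 and 6.96. Cd5l, C1qa and C1qb were at most 0.060 CPM in either group. The sums were 248.9 to 277 and 339 to 391 CPM for 6 erythroid markers, and 35.4 to 37.4 and 48.3 to 52.6 CPM for 5 endothelial ones, in WT and cKO. The antigens used to deplete mature cells summed to at most 4.01 CPM in mouse. In human, shNC and shDDX21 held 303 to 308 and 361 to 374 CPM of 4 erythroid markers, 365 to 377 and 416 to 421 CPM of 3 macrophage markers, and 1374 to 1406 and 1173 to 1192 CPM of 4 endothelial markers. The 2 depletion antigens matched in human summed to at most 10.9 CPM, and the 1 hepatocyte marker matched, TF, stood at most at 6.88 CPM. ALB, AFP and the other listed hepatocyte markers, the listed globin genes, ADGRE1, CD68 and CD5L were not matched by symbol in human. Their levels there were not looked at. The part of these other cells in the results below was not tested. In bulk samples like these, fewer cells of a type and less RNA per cell cannot be told apart.

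In the mouse, 9 of the 10 translocon and TRAP genes stood between 91.6% (Ssr1) and 115% (Sec63) of their WT mean, and Sec61b, with widely scattered libraries, stood at 71.1%. Of the 10, Sec63 was called higher and Ssr1 lower, and 8 were not called (edgeR quasi-likelihood test, adjusted p under 0.05 after Benjamini-Hochberg adjustment over 14918 genes). Over all genes tested, 36.5% were called, 20.7% higher and 15.8% lower, so 2 of 10 is no more than the background share. Among the 8558 mouse genes of at least 10 CPM, as all 10 members are, 41.9% were called (19.6% higher, 22.2% lower). Without WT replicate 1 or without cKO replicate 3, edgeR called 0 of the 10 (Ssr1 and Sec63 at an unadjusted p under 0.05), and without WT replicate 2 or cKO replicate 1 it called 1 (Sec63). The median log2 fold change of the 10 was -0.0039, against 0.00057 over all genes. The 3 cKO libraries lay wholly above the 3 WT libraries for 1 gene (Sec63) and wholly below for 2 (Ssr1 and Ssr3), where 27.6% and 21.4% of all genes did so (49.0% in either direction). In human, by contrast, the 10 genes were spread from -2.23 (SSR1) to 0.42 (SEC61B) in log2 fold change, with a median of -0.036 against 0.0052 over all genes. The test called 5 of them higher and 5 lower. Since 52.7% of the 20188 human genes tested were called (25.3% higher, 27.4% lower), and 73.5% of the 9913 genes of at least 10 CPM (33.0% higher, 40.6% lower), and since this contrast chose SSR1, nothing is read from that count. The knockdown libraries lay wholly above the controls for 4 of the 10 and wholly below for 5, where 27.9% and 29.5% of all human genes did so (57.4% in either direction).

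**Figure D1:**
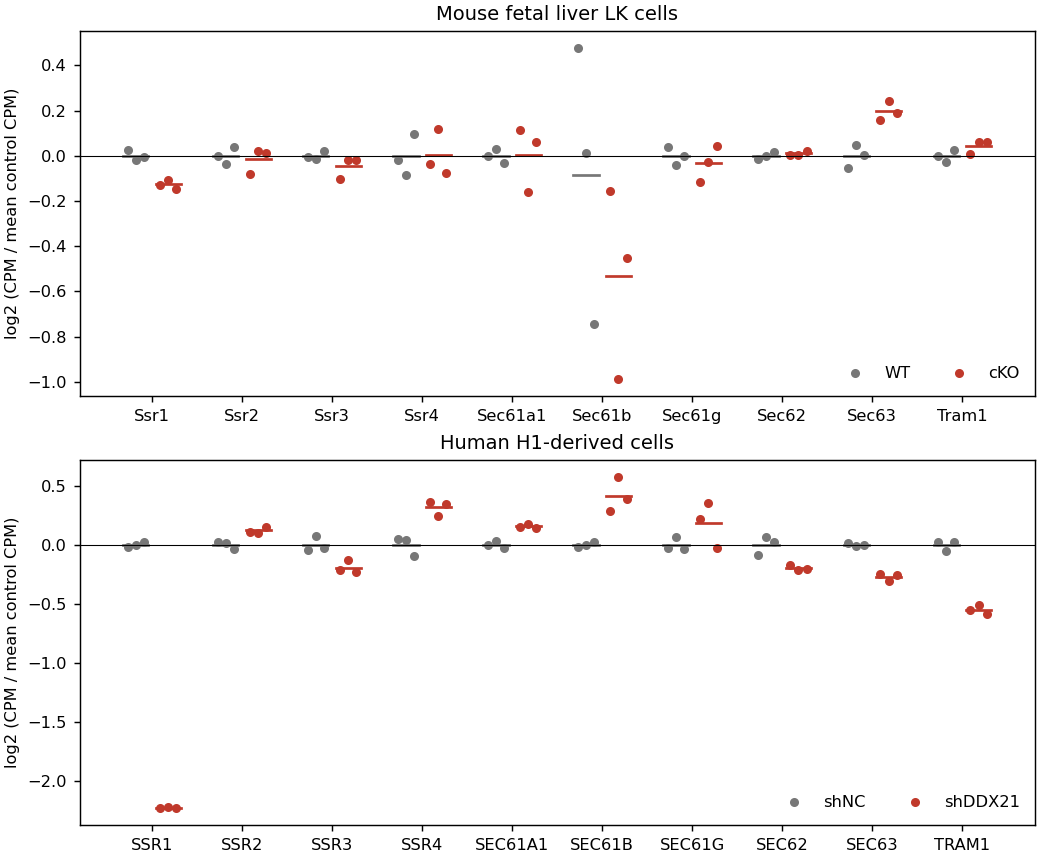
Log2 of each library's CPM over the mean CPM of the control group (vertical axis) for the 10 genes (horizontal axis), mouse above and human below, on different vertical scales. Each point is 1 library, grey for control and red for Ddx21 loss, and each bar is the mean of the 3 log2 values. The human SSR1 points sit at about -2.23, far below every other point, while the mouse Ssr1 points sit at about -0.13 and the mouse Sec61b libraries scatter widely in both groups.

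SSR1, the alpha subunit of TRAP, had the lowest human fold change of the 10. It stood at 235, 238 and 243 CPM in the shNC libraries and at 50.7, 51.0 and 51.0 CPM in the shDDX21 libraries. The 3 knockdown libraries were almost equal to each other and far below the controls. Behind these values lay 3649 to 4445 counts per control library and 861 to 988 per knockdown library. The log2 fold change was -2.23 (SE 0.034), so that 21.3% of the control level was left. Among the 4554 human genes with at least 50 CPM on average, SSR1 had the third lowest log2 fold change, and over all 20188 genes it was number 32 from the lowest. Below it came DDX21 itself (-2.78) and MPO, the myeloperoxidase of neutrophil granules (-2.36), and the next above it was GTF3A, the transcription factor for 5S ribosomal RNA genes (-1.98). The counts cover all exons of the gene (ENSG00000124783, hg38 chr6:7268306-7347446, minus strand), so they do not separate transcripts of SSR1. Genes that overlap SSR1 held at most 1.02% of its counts each.

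In mouse, Ssr1 fell by a small amount. It stood at 438, 425 and 429 CPM in WT and at 394, 400 and 389 CPM in cKO, so all 3 cKO libraries were below all 3 WT libraries. By TPM the groups overlapped, at 153.6, 151.3 and 158.1 in WT and at 146.1, 155.2 and 148.7 in cKO. The log2 fold change was -0.13 (SE 0.032, 95% interval -0.20 to -0.051, adjusted p = 0.0194 by edgeR), which left 91.6% of the WT level. The interval ends far short of the human fold change of -2.23. Whether the 2 experiments differ was not tested in 1 model, since they come from separate count tables of 2 species. In the order of all mouse genes from the lowest fold change, Ssr1 was number 5224 of 14918, and number 1809 of the 4545 with at least 50 CPM. The call did not survive every choice: the adjusted p was 0.286 with scaling by total counts, 0.151 with upper-quartile scaling, 0.104 with DESeq2 and 0.059 with the replicate number as a block. It was 0.0519 to 0.0916 when WT replicate 1 or 2 or cKO replicate 1 or 3 was left out, and 0.037 and 0.0394 without WT replicate 3 or cKO replicate 2, while the fold change remained below 0 in each.

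The promoters of the 2 mouse genes called, 1 lower and 1 higher, are shown because transcription of many ER protein genes is known to be driven through ER stress elements that end in CCACG. The 250 bases before the RefSeq start site are printed 5′ to 3′ on the strand of the gene (RefSeq GRCm38.p6; chr13:37994209-37994458, minus strand, for Ssr1; chr10:42761246-42761495, plus strand, for Sec63), with CCACG or its reverse complement CGTGG in capitals.
Ssr1: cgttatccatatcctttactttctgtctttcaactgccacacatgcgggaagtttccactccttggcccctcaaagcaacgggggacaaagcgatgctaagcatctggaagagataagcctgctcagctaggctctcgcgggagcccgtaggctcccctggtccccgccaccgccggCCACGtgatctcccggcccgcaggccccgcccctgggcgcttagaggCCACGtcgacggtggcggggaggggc
Sec63: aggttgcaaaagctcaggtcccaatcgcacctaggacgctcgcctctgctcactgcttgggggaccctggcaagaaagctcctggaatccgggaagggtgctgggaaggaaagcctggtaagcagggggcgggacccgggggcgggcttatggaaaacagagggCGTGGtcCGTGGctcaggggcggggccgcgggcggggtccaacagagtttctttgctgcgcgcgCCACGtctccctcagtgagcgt
The Ssr1 window held CCACG at 2 places, at bases -73 to -69 and -26 to -22 from the start, and the Sec63 window held it at 3, at -22 to -18 on the gene's strand and at -86 to -82 and -79 to -75 on the other. Promoters were matched for 7 of the 10 mouse genes (Ssr1, Ssr3, Ssr4, Sec61b, Sec61g, Sec62 and Sec63). Among these, 3 (Ssr1, Ssr3 and Sec63) held CCACG on either strand, as did 28.3% of 32851 mouse promoter windows of the same length. The full ER stress element (ERSE, CCAAT followed after 9 open bases by CCACG) was in 0 of the 7 and in 0.113% of all windows, and the shorter ERSE-II (ATTGG, 1 open base, CCACG) was in 0 of the 7 and in 0.0304%. Both strands were searched for each. TGACGTGG, the core bound by XBP1, was in 0 of the 7 and in 0.563%. CCACG is part of both ER stress elements, and its reverse complement is part of the XBP1 core. These are matches of letters only.

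The other TRAP subunits did not share the depth of the SSR1 change. SSR2, the beta subunit, stood at 87.4, 86.6 and 83.7 CPM in shNC and at 92.8, 92.2 and 95.3 CPM in shDDX21, a log2 fold change of 0.12 (SE 0.037). SSR3, the gamma subunit, stood at 205, 223 and 208 CPM and at 182, 193 and 180 CPM, a log2 fold change of -0.19 (SE 0.030). SSR4, the delta subunit, stood at 85.2, 84.7 and 76.9 CPM and at 106, 97.3 and 105 CPM, a log2 fold change of 0.32 (SE 0.039). By CPM, the knockdown libraries lay wholly on one side of the controls for each, above for SSR2 and SSR4 and below for SSR3. By TPM this held for SSR3 and SSR4 only. SSR2 stood at 50.7, 49.6 and 48.7 TPM in shNC and at 47.5, 47.6 and 49.8 TPM in shDDX21, with overlapping groups. Human SSR4 shares 267 exon bases with IDH3G on the opposite strand, and whether counting used strand is not given in the sources used here, so a part of its counts is uncertain.

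In mouse, none of these 3 subunits was called. Ssr2 stood at 199, 194 and 204 CPM in WT and at 189, 202 and 201 CPM in cKO, with overlapping groups (log2 fold change -0.014, 95% interval -0.11 to 0.085, adjusted p = 0.828 by edgeR). Ssr3 stood at 372, 370 and 379 CPM in WT and at 349, 369.4 and 369 CPM in cKO. Its cKO libraries lay below the WT libraries, the closest of them by under 1 CPM, and the log2 fold change was -0.045 (95% interval -0.13 to 0.041, adjusted p = 0.369 by edgeR). By TPM the Ssr3 groups overlapped, with means of 335 in WT and 345 in cKO. Ssr4 stood at 69.1, 66.1 and 74.8 CPM in WT and at 68.2, 76.1 and 66.5 CPM in cKO (0.0057, 95% interval -0.16 to 0.17, adjusted p = 0.958 by edgeR). None of these intervals reaches a change as deep as that of human SSR1.

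Set against its partners, SSR1 was low in the knockdown libraries. RPKM (CPM divided by the exon length in kilobases that the tables give) allow genes to be compared. The ratio of SSR1 to the mean of SSR2, SSR3 and SSR4 was 0.879 ± 0.041 (SD, n = 3) in shNC and 0.186 ± 0.00073 in shDDX21. It was 0.566 ± 0.015 in WT and 0.527 ± 0.018 in cKO. As a share of the summed RPKM of the 4 subunits, SSR1 made up 22.7% in shNC, 5.84% in shDDX21, 15.9% in WT and 14.9% in cKO. The ratio depends on the exon length assigned to each gene, which joins the exons of all annotated transcripts and runs, among these subunits, from 1864 bases for mouse Ssr2 to 11349 for human SSR1.

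By CPM, the Sec61 channel was at or above its control level in the human knockdown. SEC61A1, the subunit that forms the pore, stood at 376, 383 and 368 CPM in shNC and at 416, 425 and 414 CPM in shDDX21 (log2 fold change 0.16, SE 0.023). SEC61B, the beta subunit, a tail-anchored protein beside the pore, stood at 40.0, 40.4 and 41.2 CPM and at 49.3, 60.3 and 53.0 CPM (0.42, SE 0.054). SEC61G, the gamma subunit that clamps the pore, stood at 20.8, 22.1 and 20.7 CPM and at 24.7, 27.0 and 20.8 CPM (0.19, SE 0.075). By CPM, the knockdown libraries were all above the controls for SEC61A1 and SEC61B. They overlapped the controls for SEC61G, the 1 gene of the 10 whose human groups overlapped by CPM. By TPM, SEC61A1 overlapped as well, with means of 123.3 in shNC and 122.7 in shDDX21. SEC61A1 shares 622 exon bases with RUVBL1 on the opposite strand.

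The mouse channel genes were not called. Sec61a1 stood at 267, 274 and 262 CPM in WT and at 289, 239 and 280 CPM in cKO, with the cKO libraries on both sides of WT (0.0095, 95% interval -0.15 to 0.17, adjusted p = 0.927 by edgeR). Sec61g stood at 19.7, 18.6 and 19.2 CPM and at 17.7, 18.8 and 19.8 CPM (-0.032, 95% interval -0.20 to 0.14, adjusted p = 0.764 by edgeR). Sec61b was the least certain of the 10. It stood at 24.98, 18.1 and 10.7 CPM in WT and at 16.1, 9.04 and 13.1 CPM in cKO, a coefficient of variation of 39.8% and 27.8% where the listed ER genes had medians of 3.5% and 4.24%. Its log2 fold change of -0.49 (95% interval -1.25 to 0.26, adjusted p = 0.261 by edgeR) is within that spread. The same order of libraries, WT replicate 1 over 2 over 3 and cKO replicate 1 over 3 over 2, was seen in the other 5 of the 104 listed mouse genes that varied by at least 20% in both groups: Krtcap2, Emc10, Ncln, Sgta and Atf6b. This set was picked after its values were seen. Ncln, for example, ran from 138 to 77.0 CPM in WT and from 95.8 to 44.2 CPM in cKO. Mouse Sec61g and Sec61b also have near-identical copies: 10 and 3 other mouse genes matched at least 100 bases of their coding sequence at 90% identity or more, against 0 for each of the other 8, so their counts may be split between copies. Over the 6 libraries the 3 matches of Sec61b held 25 counts against 2042 for Sec61b. The 10 matches of Sec61g held 12020 counts against 2545 for Sec61g, of which 11943 lay in Zkscan1, counted over all of its exons, and 77 in the other 9.

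SEC62 and SEC63, the partners for chains that enter the channel late, were both lower in the human knockdown. SEC62 stood at 109, 121 and 118 CPM in shNC and at 103, 100.1 and 101 CPM in shDDX21 (log2 fold change -0.19, SE 0.035). SEC63 stood at 175, 172 and 172 CPM and at 146, 139 and 145 CPM (-0.27, SE 0.030). Both sets of knockdown libraries lay below the controls.

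In mouse, Sec63 rose and Sec62 was level. Sec63 (ENSMUSG00000019802, mm10 chr10:42761496-42832514, plus strand) stood at 83.5, 89.4 and 87.0 CPM in WT and at 96.5, 103 and 98.7 CPM in cKO, with every cKO library above every WT library. Its log2 fold change was 0.20 (SE 0.046, 95% interval 0.090 to 0.30, adjusted p = 0.0135 by edgeR), or 115% of WT. The call was lost with DESeq2 (adjusted p = 0.088), with a correction for gene length (0.0687), without WT replicate 1 (0.0571) and without cKO replicate 3 (0.0521). Sec62 stood at 101, 102 and 103 CPM in WT and at 102, 102 and 103 CPM in cKO (0.011, 95% interval -0.072 to 0.094, adjusted p = 0.835 by edgeR). Sec63 thus pointed in opposite directions in the 2 experiments.

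TRAM1 was the second lowest of the 10 in human. It stood at 145, 138 and 146 CPM in shNC and at 97.2, 100.5 and 95.2 CPM in shDDX21, a log2 fold change of -0.55 (SE 0.033) with 68.3% of the control level left. All 3 knockdown libraries were below the controls. In mouse, Tram1 stood at 179, 175 and 182 CPM in WT and at 179, 186 and 186 CPM in cKO and was not called (0.043, 95% interval -0.040 to 0.13, adjusted p = 0.373 by edgeR). For the 7 genes not called other than Sec61b, the mouse intervals together spanned -0.205 (Sec61g) to 0.174 (Sec61a1).

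**Figure D2:**
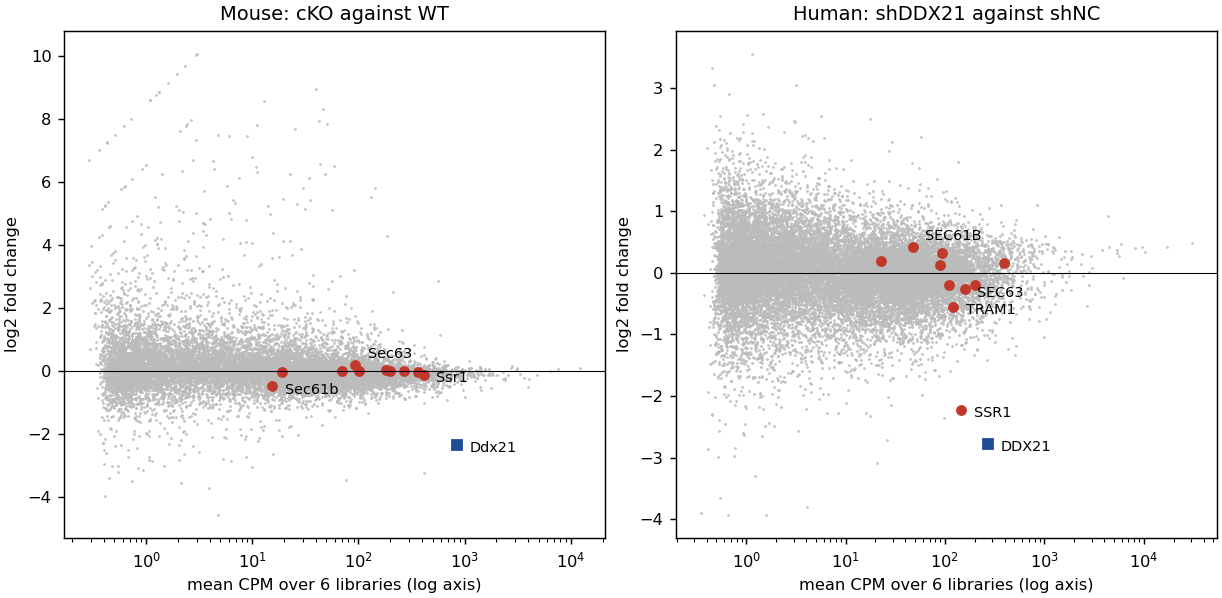
Log2 fold change (vertical axis) against mean CPM over 6 libraries (log horizontal axis) for every gene tested, mouse on the left and human on the right, with different vertical scales. Red circles are the 10 translocon and TRAP genes, the blue square is DDX21 and grey points are all other genes. Human SSR1 (-2.23) lies beside DDX21 (-2.78) at the lower edge of the genes of its level, whereas mouse Ssr1 (-0.13) lies within the body of points.

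By RPKM, the order of the genes differed between mouse and human, but the exon lengths behind it come from different annotations. Ssr2 has 1864 exon bases in mouse and SSR2 has 6643 in human. Without length, by CPM, it was number 4 of the 10 in WT and number 7 in shNC. The part of annotation in the difference was not tested. In WT the order was Ssr2 (107), Ssr3 (89.6), Tram1 (56.5), Ssr1 (41.3), Sec61a1 (39.8), Sec62 (23.4), Ssr4 (22.6), Sec61b (14.1), Sec63 (9.86) and Sec61g (7.79). The ranges of neighbouring genes over 3 libraries overlapped only for Sec62 with Ssr4 and for Sec61b with Sec63. In cKO, Ssr1 (37.8) and Sec61a1 (40.0) traded places with overlapping ranges, and so did Sec63 (11.3) and Sec61b (10.0). In shNC the order was SSR3 (40.9), TRAM1 (34.6), SEC61B (33.5), SEC61A1 (32.1), SSR1 (21.0), SEC63 (20.1), SSR4 (18.0), SEC62 (14.6), SSR2 (12.9) and SEC61G (11.5), and only TRAM1 and SEC61B overlapped as neighbours. In shDDX21, SEC61B came first (44.8) and SSR1 moved from the fifth place to the last, at 4.49 RPKM, apart from SEC62 above it (12.8).

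**Figure D3:**
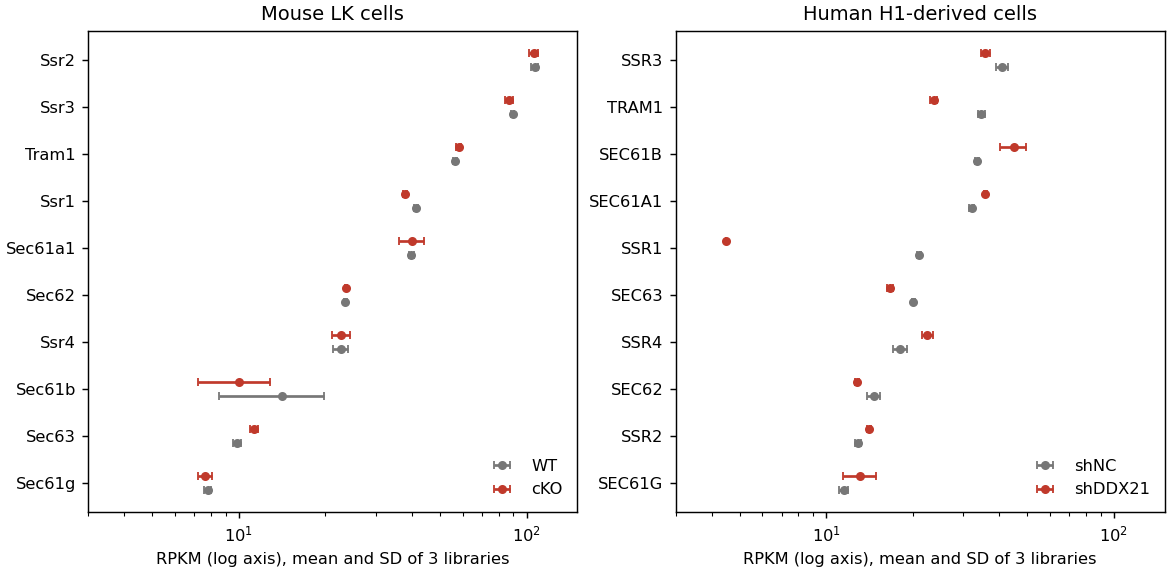
RPKM on a log axis (mean and SD of 3 libraries) for the 10 genes, ordered by their level in the control group, mouse on the left and human on the right, with control in grey and Ddx21 loss in red. SSR1 in human moves from 21.0 to 4.49 RPKM, below all the others, while the mouse pairs of points lie close together.

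The genes most like SSR1 over the 12 libraries were not its partners. Each gene's log2 CPM was set against its control mean in the same experiment and correlated with SSR1 among 8102 genes matched by symbol with at least 5 CPM in both. The highest Pearson r belonged to HNRNPK, an RNA-binding protein of the nucleus (0.999), EIF4EBP2, a repressor of translation initiation (0.998), CEBPZ (0.998), RBBP8, a DNA end resection factor (0.998), and ZFP36L2, which binds AU-rich messenger RNAs (0.998). Their human log2 fold changes were -1.34, -1.14, -1.32, -2.02 and -0.72, and their mouse values lay between -0.071 and 0.0044. TRAM1 was number 156 in that order (0.985), SEC62 918, SSR3 1337 and SEC63 1674, while SEC61B, SEC61G, SEC61A1, SSR2 and SSR4 had negative values down to -0.888. All 12 points share their libraries, and a gene lower in the knockdown with a level mouse profile scores high whatever its size, so these values are a description.

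The genes next to SSR1 on chromosome 6 did not share the size of its human change. Of the 10 nearest tested genes, 5 on each side, 5 were called lower in human and 5 were not called, where 27.4% of all human genes and 40.6% of those of at least 10 CPM were called lower. The 5 lower ones were RREB1 (log2 fold change -0.27), RIOK1, a kinase of ribosome maturation (-0.42), SNRNP48 (-0.22), the desmosome gene DSP (-0.66) and BMP6 (-0.48), each with an adjusted p of 0.00103 or less by edgeR. The 5 not called stood at 0.533 to 1.80 CPM in the controls and had values from -0.32 to 0.71. They include the nearest on either side by gene start, which both overlap SSR1 itself. In mouse, where Ssr1 lies on chromosome 13, 5 of the 10 nearest tested genes were also called lower and 5 were not called, where 15.8% of all mouse genes and 22.2% of those of at least 10 CPM were called lower. Ly86 (-3.56, from 3.96 to 0.330 CPM) and F13a1, a coagulation factor subunit (-2.04, from 43.3 to 10.55 CPM), fell far more than Ssr1. Txndc5, an ER protein disulfide isomerase (-0.21), Fars2 (-0.19, adjusted p = 0.049993 by edgeR) and Snrnp48 (-0.16) fell by amounts nearer to that of Ssr1. Rreb1 (-0.15) and Riok1 (-0.070) were not called. These neighbours were chosen by position after the SSR1 value was known.

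Around the channel, 96 other genes of protein entry, folding and exit were followed in 10 lists. In mouse, 29 of the 94 tested were called (30.9%, 11 higher and 18 lower, median -0.062), against 36.5% of all genes and 41.9% of those of at least 10 CPM. With scaling by total counts the split was 14 higher and 5 lower, and 12, 13 and 15 genes were called without cKO replicate 3, WT replicate 2 and WT replicate 1. In human, 79 of 95 were called (83.2%, 34 higher and 45 lower, median -0.065), against 52.7% of all genes and 73.5% of those of at least 10 CPM. Among genes of at least 10 CPM, 19.6% were higher and 22.2% lower in mouse, and 33.0% were higher and 40.6% lower in human. The counts of each list below stand beside these shares and were not tested against them. Of the mouse calls named below, Srp72, Rpn1, Tusc3, Nomo1, Emc8, Hspa5 and Atf4 held under every alternative processing. Srpra, Sec11c, Spcs3, Stt3b, Ccdc47, Emc9, Get3, Get4, Edem3, Vcp, Sec23b and Sar1a each lost the call under some alternative. The adjusted p-values that follow are from edgeR.

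In the machinery that delivers chains to the channel, SRP72 and SRPRA were called in opposite directions in the 2 experiments. SRP72 is a protein of the signal recognition particle, and SRPRA is a subunit of its receptor. Srp72 rose in mouse (log2 fold change 0.46, adjusted p = 0.000193) and SRP72 fell in human (-0.72, adjusted p = 1.8e-32); the difference was not tested. Srpra fell in mouse (-0.14, adjusted p = 0.0245, up to 0.238 under the alternatives) and SRPRA rose in human (0.37), a difference also not tested. Of the particle and its receptor, 1 rose and 2 fell of 7 in mouse. In human 3 rose and 4 fell of 8, among them SRP68 (-0.55). Signal peptidase, which cuts the signal sequence off, had 1 higher and 1 lower of 5 in mouse (Sec11c 0.19, Spcs3 -0.14), and 3 higher and 2 lower of 5 in human (SEC11A 0.45, SPCS3 -0.34). Oligosaccharyltransferase, which attaches sugar chains beside the channel, had 3 higher and 2 lower of 12 in mouse (Tusc3 0.51, Rpn1 0.23, Stt3b -0.23), and 7 higher and 4 lower of 12 in human (TUSC3 0.65, DDOST 0.33, RPN1 -0.30). The factors for multipass proteins had 2 higher of 7 in mouse (Nomo1 0.76, Ccdc47 0.20), and 1 higher and 3 lower of 6 in human (CCDC47 -0.29, NCLN -0.28, TMCO1 0.20).

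Other routes insert membrane proteins without the Sec61 channel. The ER membrane protein complex had 2 lower of 10 in mouse (Emc8 -0.51, Emc9 -0.53), and 3 higher and 3 lower of 10 in human (EMC3 0.32, MMGT1 -0.47, EMC4 -0.52). The tail-anchored route had 1 higher and 2 lower of 6 in mouse (Get3 0.20, Get4 -0.40), and 4 higher and 2 lower of 7 in human (GET3 0.53, GET4 0.63, SGTA -0.31).

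Inside the ER, chaperones and folding enzymes were mostly lower in human. There 14 of 18 fell and 2 rose (median -0.35), with HYOU1, a chaperone of the BiP system, at -0.95, PDIA6 at -0.76 and the lectin chaperone CANX at -0.60, where 40.6% of all genes of at least 10 CPM fell. In mouse 3 of 18 fell and 1 rose (median -0.057). Hspa5 had the smallest p of them (-0.33, adjusted p = 0.000475), and HSPA5 in human stood at a like value (-0.34). The sensors and factors of the unfolded protein response went the other way in human, with 5 of 7 higher (median 0.39), where 33.0% of genes of at least 10 CPM were, among them ATF4 (0.39) and the sensor ERN1 (0.51), and 2 lower, among them XBP1 (-0.39). In mouse only Atf4 was called in that list, and it fell (-0.20, adjusted p = 0.0069). ER-associated degradation had 1 higher and 4 lower of 11 in mouse (Edem3 -0.25, Vcp 0.16), and 4 higher and 4 lower of 11 in human (EDEM3 -0.59, OS9 0.38, SYVN1 0.53). The COPII coat, which carries cargo out of the ER, had 1 higher and 1 lower of 11 in mouse (Sec23b 0.14, Sar1a -0.13), and 2 higher and 7 lower of 11 in human (SEC23A -0.59, SEC24A -0.58, SAR1B -0.41).

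**Figure D4:**
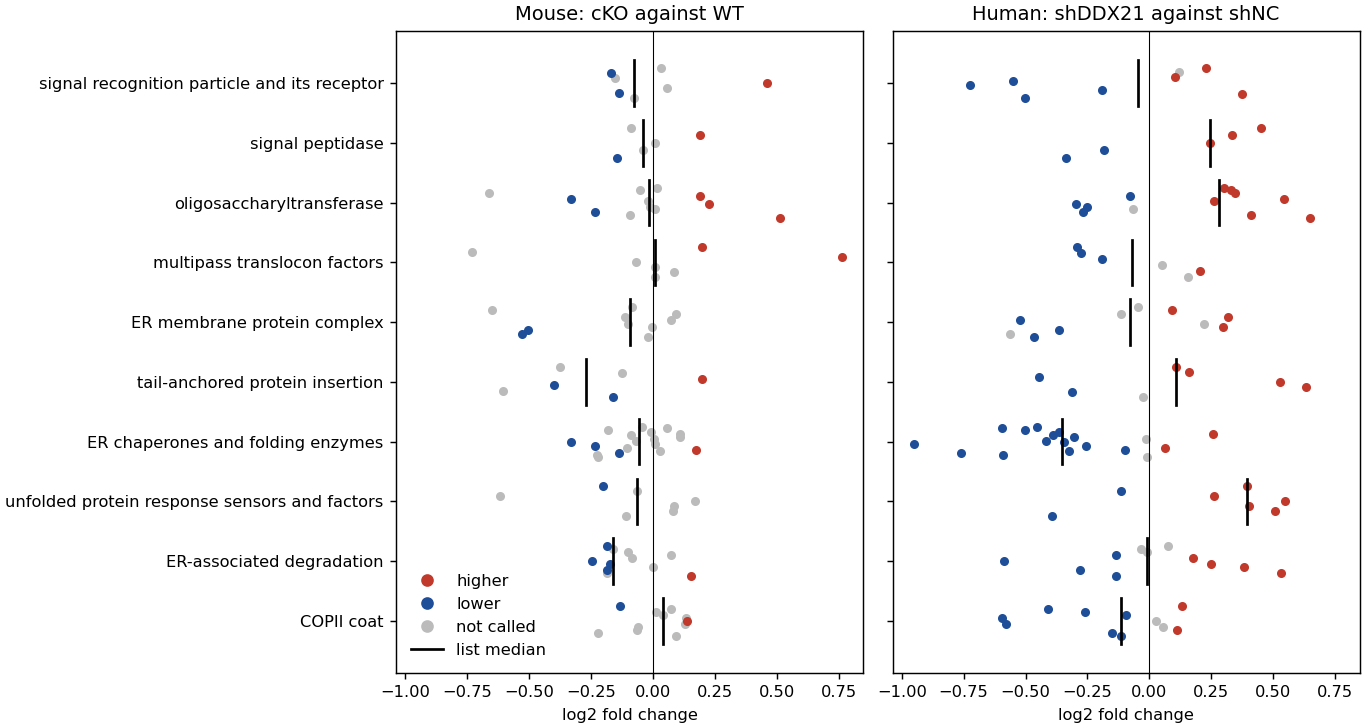
Log2 fold change (horizontal axis, shared by both panels) of the genes in 10 lists around the channel, mouse on the left and human on the right. Each point is 1 gene, red if called higher, blue if called lower and grey if not called, and the black bar is the list's median. The human chaperone list sits to the left of 0 (median -0.35), while most mouse points are grey.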

How the data were processed

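The authors deposited, per the file headers, raw counts per gene with an exon length in bases for 6 mouse and 6 human libraries. They also deposited normalized values, a signal that equals the counts after division by a library-wide constant, and log2 ratios of these to the mean of the controls. The submitters' processing notes name STAR, featureCounts, DESeq2, mm10 and hg38 without versions or roles. The strand setting is not given in the sources used here. The normalized tables hold 11908 mouse and 18674 human genes, so tests used the raw counts.

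Each experiment was fitted alone with edgeR 4.0.16 in R 4.3.3 (filterByExpr, TMM scaling, two-sided quasi-likelihood test, Benjamini-Hochberg adjustment over 14918 mouse and 20188 human genes). A gene was called at an adjusted p under 0.05. SE is the log2 fold change over the root of F, and RPKM used the deposited exon lengths. Alternatives were other scalings, filters, DESeq2 1.42.0, a replicate block, a gene-length offset and leaving out each library. On simulated counts the test recovered 98 of 100 2-fold and 100 of 100 4-fold changes in mouse, with 8 false calls among 14605 genes. In human it recovered 100 of 100 and 100 of 100, with 7 false calls among 19695. The changed genes had a mean of at least 50 counts, and the counts were drawn independently for each gene and library. The simulation therefore covers neither changes as small as those of the mouse members nor variation that genes share within a group. Named genes were the 10 members, up to 3 genes of each other list with the smallest p per experiment, the 5 most like SSR1, and DDX21; 1 gene that the rule names is not reported here. Copies were searched with blastn 2.17.0. Members and lists were chosen with earlier results of these data known.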

Additional observations from a re-analysis of the deposited data

Results flagged for a closer look

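SEC63, the partner of the channel that recruits BiP, drew attention because every library moved one way in mouse and the other way in human. Its log2 fold change was 0.20 in mouse, where all 3 cKO libraries lay above all 3 WT libraries, and -0.27 in human, where all 3 shDDX21 libraries lay below all 3 shNC libraries. Such separation in either direction was seen for 49.0% of all mouse and 57.4% of all human genes. Opposite calls were not particular to SEC63: Srp72, Srpra, Rpn1, Ccdc47, Get4 and Atf4 had them too. The mouse Sec63 call was lost with DESeq2, with the gene-length offset and without WT replicate 1 or cKO replicate 3. The difference between the 2 experiments was not tested.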

How the results depend on the processing

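Human SSR1 stayed between -2.26 and -2.16 in log2 fold change over 14 alternatives. The human SEC61G call was lost under 7 of them, with values from 0.11 to 0.29. The 2 mouse genes called became 1 with upper-quartile factors and 1 with total counts (Sec63), 1 with the gene-length offset (Ssr1) and 0 with DESeq2 (2 at an unadjusted p under 0.05), and 0 to 2 when 1 library was left out. The 29 mouse calls in the other lists became 19 with total counts (14 higher, 5 lower) and 15 with DESeq2, and 12 to 31 when 1 library was left out, lowest without cKO replicate 3 (12), WT replicate 2 (13) and WT replicate 1 (15). Of the values of the other named mouse genes under the alternatives, 333 kept their side of the threshold, 96 lost the call and 5 gained one, and in human 434 of 434 kept it. Of all mouse calls, 56.6% were higher, and 68.9% with total counts.

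With the replicate number as a block, 1 of the 10 mouse genes was called (Sec63), and Ssr1 had an adjusted p of 0.059 by edgeR. The same-numbered libraries deviated together with r of 0.316, -0.177 and 0.0131 in mouse and -0.0138, -0.0024 and -0.00086 in human, so the numbers are not treated as pairs. Without gene length, SSR1 over the mean of SSR2 to SSR4 was 2.01 in WT, 1.88 in cKO, 1.89 in shNC and 0.401 in shDDX21.

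Mouse genes that were not called changed sign in places. Ssr2 was 0.013 with upper-quartile factors, 0.052 with total counts, 0.0012 when each library had to reach 10 counts and 0.0017 with the gene-length offset, and -0.036 to 0.030 when 1 library was left out. With total counts Ssr3 was 0.021 and Sec61g 0.034. With RLE factors, with no low-count filter and with DESeq2, Ssr4 was -0.011, -0.011 and -0.011, Sec61a1 -0.0062, -0.0069 and -0.0062, and Sec62 -0.0048, -0.0057 and -0.0049. Sec61a1 was -0.025 with the gene-length offset. When 1 library was left out, Ssr4 ran from -0.042 to 0.051, Sec61a1 from -0.032 to 0.10 and Sec61g from -0.071 to 0.020. The cause of these changes was not tested. At 9.04 to 24.98 CPM, Sec61b and Sec61g rest on the fewest counts.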
